A study of Homo sapiens with 6 samples.

Results

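The AP-1 subunits and immediate early genes were followed after knockdown of the receptor Ror1 in MDA-MB-231 cells, an established triple-negative breast cancer line. The group holds 10 genes of the 57445 in the deposited table, taken by their symbols: the Jun family (JUN, JUNB, JUND), the Fos family (FOS, FOSB, FOSL1, FOSL2), ATF3, EGR1 and ARC. Cells of both conditions had been transduced with a lentiviral pGIPZ vector and kept under puromycin, and they differed in the hairpin, a control hairpin (shCTL, 3 libraries) or one against ROR1 (shRor1, 3 libraries). The study describes the control hairpin as non-silencing, whereas the sample labels call it an empty vector. DMSO is named in the header over the control values and not in that over the shRor1 values. A stable knockdown with 1 hairpin compares 2 long-term cultures, and whether each line was a pool or a clone is not stated in the sources used here. Nothing states whether the 3 libraries of a condition came from separate cultures, so the p-values measure the spread between these libraries, which may be technical. Levels are in TPM, in which each library is scaled to a sum of 1000000 after reads are divided by gene length, so levels of different genes can be compared. TPM keeps no sequencing depth, and the counting error of a single value is unknown. The columns carry no replicate number, and libraries are called the first, the second and the third by their place in the table.

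AP-1 is a dimer of basic leucine zipper proteins. Jun proteins pair with each other or with Fos proteins, Fos proteins need a Jun partner, and the dimer binds the sequence TGACTCA and its relatives in promoters and enhancers. Signals that reach the kinases JNK and ERK phosphorylate Jun proteins and the ternary complex factors, and Wnt5a acting through Ror receptors is one route to JNK. Immediate early genes such as FOS, FOSB, EGR1 and ARC are transcribed within minutes of serum or growth factor addition without new protein synthesis, and their mRNAs decay quickly. FOSL1 (Fra-1) and FOSL2 (Fra-2) respond later and are kept up by lasting ERK activity, as in cells with mutant RAS or RAF, to which MDA-MB-231 cells belong.

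The promoters are shown first, because they are where the members can be compared by sequence. RefSeq windows (GRCh38.p14) from 250 bases before to 50 bases after the start site were given for 8 of the 10 members. They made 9 windows, since ATF3 was given with a pair of start sites, and each was found exactly once on its chromosome in GRCh37. The coordinates below are those of GRCh37, the build of the study. Capitals mark the motifs searched on both strands: the CArG box bound by serum response factor, TGACGTCA (the cAMP response element), its core TGACGT, the AP-1 site TGACTCA, its longer relative TGACATCA, the EGR1 site GCGTGGGCG and the TATA box TATAAA. EGR1, a zinc finger factor and standard immediate early gene, had 2 CArG boxes at positions -105 to -96 and -83 to -74, counted back from the start site, and 2 copies of TGACGT on the reverse strand (ACGTCA). Its 250 bases upstream, chr5:137800918-137801167, plus strand, are printed whole because EGR1 varied strongly between libraries and held both CArG boxes of the group.
EGR1 upstream: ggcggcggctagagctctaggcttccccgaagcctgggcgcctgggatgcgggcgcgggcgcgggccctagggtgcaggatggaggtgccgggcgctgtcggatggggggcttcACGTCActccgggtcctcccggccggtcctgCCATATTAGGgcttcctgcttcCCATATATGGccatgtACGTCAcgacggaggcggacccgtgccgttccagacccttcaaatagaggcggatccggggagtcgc
For 6 other members, 30 bases around 1 match each are shown, chosen for the response element and its relatives. FOS (chr14:75745455-75745484, plus strand) and FOSB (chr19:45971182-45971211, plus strand) carried the core TGACGT at nearly the same distance from the start site, at -64 to -59 and at -60 to -55. JUN (chr1:59249768-59249797, minus strand) and ATF3 (chr1:212738615-212738644, plus strand) carried TGACATCA, FOSL2 (chr2:28615647-28615676, plus strand) the core TGACGT, and JUND (chr19:18392614-18392643, minus strand) the full TGACGTCA.
FOS: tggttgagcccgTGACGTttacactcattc
FOSB: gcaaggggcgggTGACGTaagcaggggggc
JUN: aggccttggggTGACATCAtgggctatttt
ATF3: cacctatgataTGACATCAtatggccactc
FOSL2: ggagtctggggtTGACGTgagtgaatccac
JUND: ggccgcccccaTGACGTCAacccacaaggc
The core TGACGT was found in 5 of the 8 members with a window, against 7.98% of 35116 RefSeq windows of the same length, where TGACGTCA contains the core on both strands. The CArG box was found in 1 of the 8 members and in 1.29% of all windows, and TGACATCA in 2 members and in 2.61%. TATAAA was found in 4 members and in 11.5%, TGACTCA in FOSL2 alone and in 4.95%, and GCGTGGGCG in 0 members and in 0.795%. The TATAAA of ATF3 lay far from the start site, at -230 to -225, and in the other window than its TGACATCA. Both windows of ATF3 were counted for it, whereas the percentages are per window. These matches describe the letters of a short window and are no measured binding, and enhancers farther upstream were outside it.

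ROR1, the targeted gene, had 15.42, 13.49 and 20.56 TPM in shCTL and 9.34, 11.93 and 14.85 TPM in shRor1, a mean of 73% of the control with overlapping groups (exact two-sided permutation test, p = 0.2). For its stable knockdown the paper refers to a western blot of Ror1 protein in both conditions, and protein is not measured here. Of 5 genes that mark this mesenchymal-like line (VIM, CD44, AXL, CAV1, MSN), each was at 346.6 TPM or more in every library. ESR1, PGR, CDH1 and GATA3, which should be low, stayed at or under 4.69 TPM, with CDH1 from 0.80 to 1.22 TPM in shCTL and from 1.36 to 1.47 TPM in shRor1. The 4 markers of blood, endothelial or liver cells found in the table, of 5 listed (PECAM1 had no row), summed to between 0.16 and 0.46 TPM.

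The control cells held an AP-1 made at the mRNA level mostly of FOSL1, FOSL2 and JUN. FOSL1 (ENSG00000175592.4, chr11:65659520-65668044, minus strand), the most abundant member, had 247.57, 235.05 and 194.02 TPM in shCTL and 279.95, 226.75 and 180.99 TPM in shRor1. The shRor1 libraries lay on both sides of the controls, with the highest and the lowest value of all 6 among them. With a mean over all libraries of 227.4 TPM it stood at rank 644 of the 57445 genes. FOSL2 (ENSG00000075426.7, chr2:28615315-28640184, plus strand) had 80.17, 71.24 and 85.95 TPM in shCTL and 90.84, 64.17 and 79.17 TPM in shRor1, again with the extremes in shRor1. It was lowest in the second library of both conditions.
FOS (ENSG00000170345.5, chr14:75745529-75748933, plus strand), the founding member of the family, was far below both. Its values were 1.82, 10.77 and 2.56 TPM in shCTL and 2.20, 5.88 and 1.91 TPM in shRor1, and the second library of each condition was the highest. FOSB (ENSG00000125740.9, chr19:45971253-45978437, plus strand), a further early response gene, had 0.39, 1.69 and 0.81 TPM in shCTL and 0.74, 1.28 and 0.61 TPM in shRor1, with the same pair of libraries on top. FOSL1 made up 72.4% ± 3.47 (SD, n = 3) of the summed TPM of the 4 Fos family genes in shCTL and 73.3% ± 3.85 (SD, n = 3) in shRor1. FOSL2 made up 25.7% ± 4.16 and 25.3% ± 4.4, and FOS and FOSB shared the small rest, with FOS at 0.552% to 3.38% of the whole family.

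JUN (ENSG00000177606.5, chr1:59242517-59249720, minus strand), the main partner of Fos proteins, had 67.07, 60.58 and 57.15 TPM in shCTL and 70.41, 60.33 and 59.89 TPM in shRor1. These were the steadiest values of the group, with the highest library of a condition 1.17 and 1.18 times the lowest. JUND (ENSG00000130522.4, chr19:18390504-18392432, minus strand), which is known as the more constantly expressed Jun protein, had 13.37, 15.24 and 17.56 TPM in shCTL and 11.35, 17.65 and 21.37 TPM in shRor1. Its shRor1 values enclosed those of the control. JUNB, which can oppose JUN in growth control, had 11.66, 15.00 and 9.84 TPM in shCTL and 11.49, 15.73 and 14.45 TPM in shRor1, with the second library highest in each condition. JUN, JUNB and JUND lack introns in their canonical transcripts (1 exon each). The gene of JUNB (ENSG00000171223.4, chr19:12902300-12904129, plus strand) shares exonic bases with HOOK2 on the opposite strand, which was listed at 6.33 to 9.58 TPM in shCTL and 7.35 to 16.43 TPM in shRor1. The kit kept strand, but whether the counting used it is not stated in the sources used here, so reads of the pair may have been exchanged.
JUN made up 69.0% ± 3.31 of the Jun family TPM in shCTL and 67.5% ± 7.0 in shRor1 (SD, n = 3 each). The family summed to 89.2 ± 4.04 TPM in shCTL and 94.2 ± 1.31 TPM in shRor1. These totals ran from 84.55 to 92.1 TPM in shCTL and from 93.25 to 95.71 TPM in shRor1. They did not overlap, although each of the 3 genes did. Groups without overlap were found for 7.78% of all tested genes (6.48% higher in shRor1), a share for single genes and not for sums of genes. Differences in mean TPM were 1.94 for JUN, 1.72 for JUNB and 1.4 for JUND. With median ratio scaling they were -1.47, 0.908 and 0.41, so that the decrease of JUN offset the rises of JUNB and JUND. The higher family total in shRor1 thus depended on the scaling. An exact permutation test of 3 against 3 cannot go below p = 0.1. The Fos family summed to 310.7 ± 24.3 TPM and 311.5 ± 56.7 TPM, so that Fos family transcripts outnumbered Jun family transcripts 3.48 ± 0.118 times in shCTL and 3.31 ± 0.642 times in shRor1. The ratio ran from 3.35 to 3.58 in shCTL and from 2.74 to 4.01 in shRor1, a wider spread around nearly the same mean. In bulk RNA, fewer cells expressing a gene and less RNA per cell cannot be told apart.

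**Figure D1:**
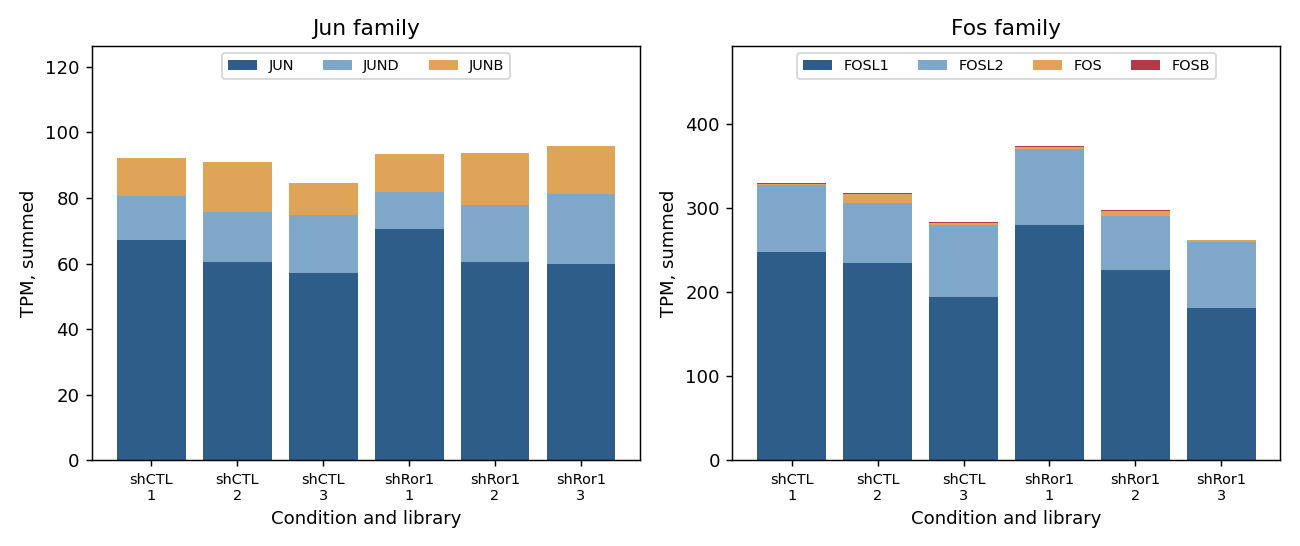
TPM of the Jun family (left) and the Fos family (right), stacked by gene, in each of the 6 libraries (shCTL 1 to 3, shRor1 1 to 3). FOSL1 and FOSL2 fill nearly the whole Fos column in every library, and FOS is visible mainly in the second library of each condition, at 10.77 and 5.88 TPM.

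ATF3 (ENSG00000162772.12, chr1:212738676-212794119, plus strand), a stress-induced factor that pairs with Jun proteins, had 12.28, 17.60 and 10.88 TPM in shCTL and 13.17, 10.20 and 9.69 TPM in shRor1. Its highest value lay in the second shCTL library, while the second shRor1 library was not raised. EGR1 (ENSG00000120738.7, chr5:137801168-137804992, plus strand) had 13.68, 34.82 and 13.69 TPM in shCTL and 15.93, 19.53 and 11.17 TPM in shRor1. The second library was the highest of each condition, and the second shCTL library stood at 2.54 times the mean of the other 2. ARC (ENSG00000198576.2), which encodes a protein of neuronal synapses and belongs to the same early response, had 0.89, 2.54 and 0.90 TPM in shCTL and 0.38, 1.65 and 0.35 TPM in shRor1. It was likewise highest in the second libraries, at 2.84 and 4.52 times the mean of the other 2.
In order of the control means, the members ran from FOSL1 (225.5 ± 28.0 TPM) over FOSL2 (79.1 ± 7.41), JUN (61.6 ± 5.04), EGR1 (20.7 ± 12.2), JUND (15.4 ± 2.10), ATF3 (13.6 ± 3.55), JUNB (12.2 ± 2.62), FOS (5.05 ± 4.97) and ARC (1.44 ± 0.95) to FOSB (0.963 ± 0.663; SD, n = 3 for all). FOSL1 lay above FOSL2 without overlap over the 6 libraries, as did JUN above EGR1. FOSL2 was above JUN within each of the 6 libraries, although their ranges overlapped across libraries. EGR1, JUND, ATF3 and JUNB overlapped and changed places, each of the first 3 being above the next in 4 of 6 libraries. JUNB was above FOS and FOS above ARC within every library, and ARC above FOSB in 4 of 6.

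**Figure D2:**
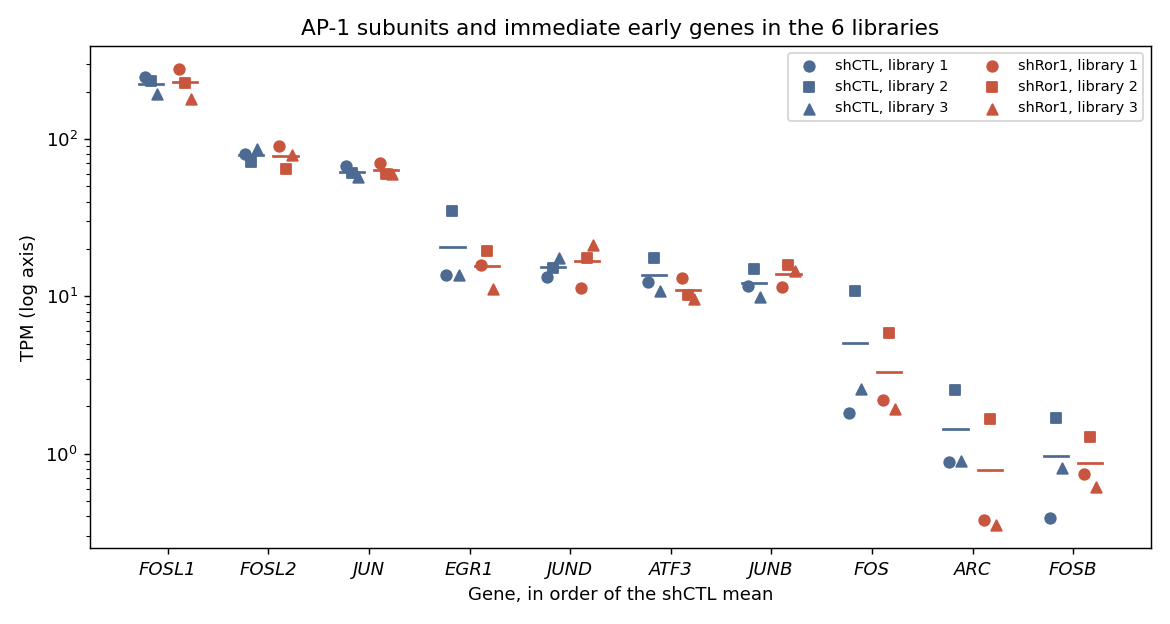
TPM of the 10 genes on a log axis, by condition (colour) and library (marker), with a bar at the mean of each condition. The squares, which stand for the second libraries, are the highest of their condition for EGR1, FOS, ARC, FOSB and JUNB, and the conditions overlap for every gene.

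For none of the members was the difference between shRor1 and shCTL larger than the spread between libraries. Of the 10, FOSB and ARC reached 1 TPM in only 2 libraries and were not tested, and the other 8 entered a limma fit on log2(TPM + 1), which took the 16554 genes that reached 1 TPM in 3 libraries or more. Of these 8, 0 had an adjusted p below 0.05, where 0% of all genes passed, and 0 had an unadjusted p below 0.05, where 2.85% did (2.31% higher and 0.544% lower in shRor1). The groups overlapped for all 10, against 7.78% of tested genes without overlap (6.48% higher and 1.3% lower in shRor1). Among the 8, 4 had a positive and 4 a negative log2 fold change, with a median of -0.01, beside 67.0% positive and a median of 0.05 over all tested genes. The exact two-sided permutation test over the 6 libraries gave p from 0.4 (ATF3) to 1 (FOSL1) over the 10 members and cannot go below 0.1 with 3 against 3.
The intervals show which sizes of change the data could have missed. JUN had a log2 fold change of 0.04 with a standard error of 0.10 and a 95% interval from -0.18 to 0.27 (limma, adjusted p = 0.986). FOSL1 had 0.01 with an interval from -0.37 to 0.39, and FOSL2 -0.03 with an interval from -0.34 to 0.28. JUNB had 0.19 (-0.22 to 0.59) and JUND 0.08 (-0.42 to 0.59). ATF3 had -0.26 (-0.70 to 0.18; adjusted p = 0.984 from limma), with a mean of 81.1% of the control. Without the second shCTL library, in which ATF3 was highest, its log2 fold change was -0.075. JUNB ran from 0.054 without the third shCTL library to 0.335 without the second. For these 6 members a change of 1 on the log2 scale in either direction lay outside the interval.
EGR1, at 75.0% of the control mean, had a log2 fold change of -0.29 with an interval from -1.13 to 0.55 (adjusted p = 0.984 from limma). FOS, at 65.9%, had -0.29 with an interval from -1.59 to 1.00 (adjusted p = 0.986 from limma). For both, a decrease of 1 on the log2 scale lay inside the interval, so that with this spread the data are compatible with it. For FOS an increase of 1 also lay inside, just under the upper end of 1.002. Both lower means rested on the second shCTL library, since without it the log2 fold change was 0.34 for FOS and 0.14 for EGR1. Without the second library of both conditions, an alternative chosen after the data were seen, they were -0.05 and -0.03. In a fit without the expression filter, FOSB had a log2 fold change of -0.03 (-0.69 to 0.63) and ARC one of -0.455 (-1.34 to 0.43), with adjusted p of 0.992 and 0.921 from limma. ARC was at 55.0% of the control mean with a permutation p of 0.5 (exact, two-sided). Its difference of -0.65 TPM was -0.102 TPM without the second shCTL library and -0.53 TPM without the second library of both conditions. On this scale the added 1 understates changes of genes with few TPM such as these.

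**Figure D3:**
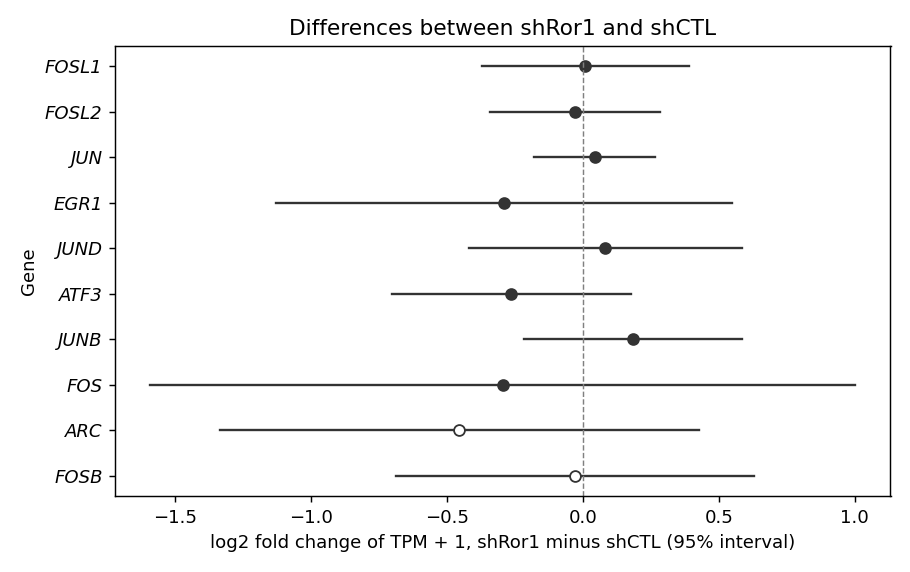
Log2 fold change of TPM + 1 (shRor1 minus shCTL) of each gene with its 95% interval from limma, where open circles are the 2 genes given from the fit without a filter. All intervals cross 0, narrowly for JUN (-0.18 to 0.27) and widely for FOS (-1.59 to 1.00).

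The main pattern among the members lay between libraries of a condition. FOS, FOSB, EGR1 and ARC were highest in the second shCTL library and next highest in the second shRor1 library. For FOS these stood at 4.92 and 2.86 times the mean of the other 2 libraries of their condition, for FOSB at 2.82 and 1.90 times. JUNB was highest in the same pair in the other order, at 1.40 and 1.21 times. JUN, FOSL1 and JUND were close to their neighbours there, between 0.926 and 1.08 times, and FOSL2 was at 0.858 and 0.755 times. Thus 5 of the 10 members were highest in the second library of both conditions, against 10.5% of all tested genes. FOSB and ARC, which count among these 5, were too low to be tested, so the 2 shares are not over like sets. The tested members with this pattern were FOS, EGR1 and JUNB.
The standard deviation of log2(TPM + 1) within conditions was 0.92 for FOS and 0.59 for EGR1, at percentiles 98.4 and 98.9 among the 2654 and 2601 tested genes whose mean lay within 0.5 of theirs. It was 0.12 for JUN, at percentile 54.8 of 1915 genes. The other 5 tested members also varied more than most genes of like level, FOSL1 at percentile 94.4, JUND at 92.2, FOSL2 at 86.0, ATF3 at 85.4 and JUNB at 81.4. Over the 6 libraries, Pearson's r between FOS, FOSB, EGR1 and ARC ran from 0.816 to 0.962 in the 6 pairs. Without the second libraries it ran from -0.243 to 0.883 over the 4 remaining ones, so the shared pattern rested on them. JUN and FOSL1 formed another pair (r = 0.849), highest in the first shRor1 and then in the first shCTL library, and JUND ran against FOSL1 (r = -0.946). These values describe 6 libraries and share the scaling of each library.
Across all 16554 tested genes, deviations from the condition mean were positively correlated between libraries in the same place of the table (r of 0.284 for the first, 0.238 for the second and 0.399 for the last). For libraries in different places r was between -0.281 and -0.003. Deviations within a condition cancel for each gene, so these negative values follow in part from the positive ones and are no separate contrast. The labels and headers name no batch, and the part of a shared day or batch in the FOS and EGR1 values was not tested.

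**Figure D4:**
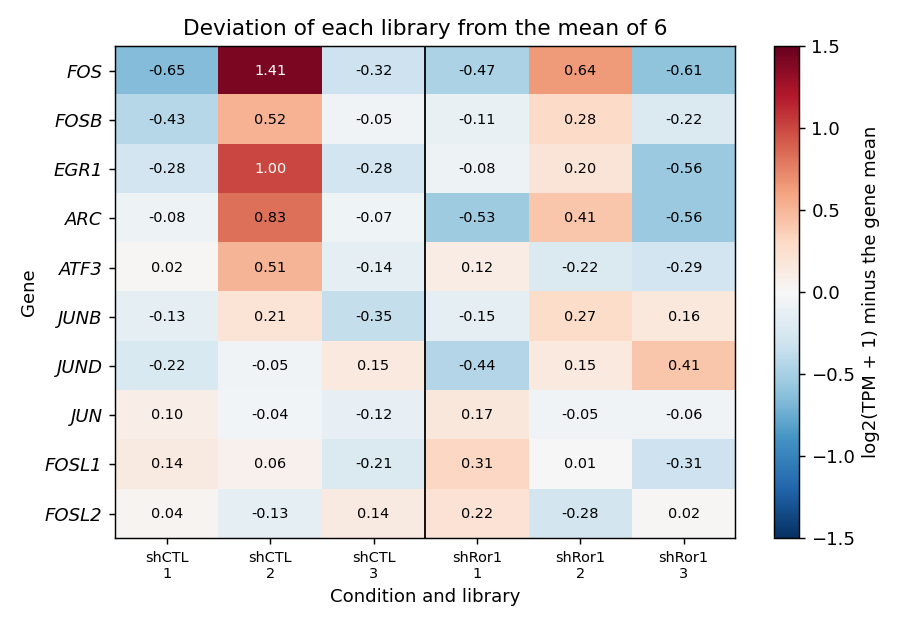
Deviation of log2(TPM + 1) of each gene in each library from the mean of the gene over 6 libraries, with the vertical line between shCTL and shRor1. FOS (1.41 and 0.64), FOSB, EGR1 and ARC are raised in the second library of both conditions, whereas FOSL2 is lowered there (-0.13 and -0.28).

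Other immediate early genes were read for the same pattern. Of 30 listed genes, 7 were highest in the second library of both conditions (23.3%). EGR2, EGR3 and NR4A3 count among these 7 but were too low to be tested, whereas the share over all genes given below covers tested genes only. EGR2, the nearest relative of EGR1, had 0.30, 0.97 and 0.24 TPM in shCTL and 0.26, 0.60 and 0.15 TPM in shRor1, so it followed EGR1 at a far lower level and is named after its values were seen. Among the abundant early genes, CCN1 (CYR61), a matricellular protein and YAP target, was lowest in the second library of each condition, at 695.73 and 673.27 TPM. The heat shock genes, read as a sign of handling stress, were highest in the second library of both conditions for 4 of 8. The share over all tested genes was 10.5%. HSPB1 went the other way and was lowest in the second library of each condition, at 311.92 and 358.16 TPM. DNAJB1 was highest there in neither condition, and HSP90AA1 in shRor1 only. HSPA8, the constitutive chaperone, had 2580.30, 3116.49 and 2480.26 TPM in shCTL and 2785.49, 3117.76 and 2197.15 TPM in shRor1. HSPA1A, an inducible chaperone, was highest in the second library of both conditions, at 18.06 and 19.69 TPM. HSPA1B was highest there in shCTL (193.77 TPM) but not in shRor1, with 210.79, 204.93 and 151.27 TPM. The coding sequences of this pair are nearly identical and their reads could have been divided either way. The part of handling in the FOS and EGR1 values was not tested.
In the comparison of shRor1 with shCTL, 22 of these 30 genes were tested, of which 12 were higher and 10 lower, with 0 past the adjusted threshold and a median log2 fold change of 0.01. IER3, an early response gene that affects cell survival, had 141.33, 134.99 and 132.97 TPM in shCTL and 151.28, 154.39 and 166.58 TPM in shRor1. Each shRor1 library lay above all controls, with a log2 fold change of 0.20 (unadjusted p = 0.0185, adjusted p = 0.984 from limma). Such a rise without overlap was found for 6.48% of all tested genes. IER3 was the only gene of the 6 lists around AP-1 with an unadjusted p below 0.05, where 2.85% of all tested genes passed. KLF2, a Krüppel-like factor, had a log2 fold change of 0.48 (-0.05 to 1.01) and DUSP4, a phosphatase of MAP kinases, one of 0.24 (-0.14 to 0.63), both with overlapping groups.

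The genes above AP-1 were also near their control level. Of 19 kinases and ternary complex factors, 18 were tested, 12 higher and 6 lower, with 0 past the threshold and a median of 0.05, the same as over all genes. MAP2K1 (MEK1), the kinase that activates ERK, had 97.41, 93.31 and 90.19 TPM in shCTL and 96.85, 108.74 and 102.00 TPM in shRor1 (log2 fold change 0.13, interval -0.04 to 0.30). MAP2K4, which activates JNK, had 0.10 (-0.11 to 0.31), and MAP2K2 (MEK2), the most abundant of the list, had -0.02 (-0.23 to 0.19). SRF, the factor that binds the CArG box, had 47.81, 46.76 and 43.91 TPM in shCTL and 48.99, 40.40 and 37.47 TPM in shRor1 (log2 fold change -0.13, interval -0.38 to 0.12). SRF was highest in the first library of each condition, and its part in the EGR1 and FOS values was not tested. Phosphorylation, by which these proteins act, is not seen in mRNA.
Of 12 other basic leucine zipper partners, 10 were tested, 4 higher and 6 lower, with 0 past the threshold and a median of -0.05, which was 0.04 without the second shRor1 library and 0.01 without the third shCTL library. ATF4, the effector of the integrated stress response and the most abundant, had 391.03, 325.16 and 333.97 TPM in shCTL and 401.14, 285.16 and 312.12 TPM in shRor1. ATF2, a JNK substrate that pairs with JUN, had a log2 fold change of 0.09 (-0.10 to 0.28) and BATF3 one of -0.16 (-0.53 to 0.22). MAFF, a small Maf protein without a transactivation domain, lay lower in each shRor1 library than in any control, by a log2 fold change of -0.08 (-0.26 to 0.11). The same held for 1.3% of all tested genes.
Of 5 genes around Jun protein turnover, all were tested, 3 higher and 2 lower, with 0 past the threshold. The ubiquitin ligases ITCH and COP1 had log2 fold changes of 0.11 (-0.07 to 0.30) and 0.13 (-0.09 to 0.34) respectively.

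Genes known as AP-1 targets did not move together. Of 21, 16 were tested, 8 higher and 8 lower, with 0 past the threshold and a median of 0.00. HMGA1, an architectural chromatin protein and the most abundant of them, had 972.78, 860.67 and 984.64 TPM in shCTL and 1021.88, 761.82 and 887.11 TPM in shRor1. TIMP1, an inhibitor of matrix metalloproteinases, had 126.64, 117.51 and 124.20 TPM in shCTL and 129.81, 136.86 and 134.71 TPM in shRor1. Its groups did not overlap, at a log2 fold change of 0.12 (-0.03 to 0.28). HMOX1, heme oxygenase, had 6.12, 5.51 and 5.39 TPM in shCTL and 5.11, 4.98 and 3.88 TPM in shRor1, without overlap, at -0.24 (-0.55 to 0.06). Over all tested genes, 6.48% lay higher and 1.3% lower in shRor1 without overlap. VEGFA, a growth factor for vessels, had 0.17 (-0.05 to 0.40) with overlapping groups. The adjusted p was 0.984 for TIMP1, HMOX1 and VEGFA (limma). The heat shock list had 8 of 8 tested, 5 higher and 3 lower, with 0 past the threshold and a median of 0.03, which was -0.041 without the second shRor1 library and 0.149 without the third. HSPB1 had 0.12 (-0.10 to 0.33).

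**Figure D5:**
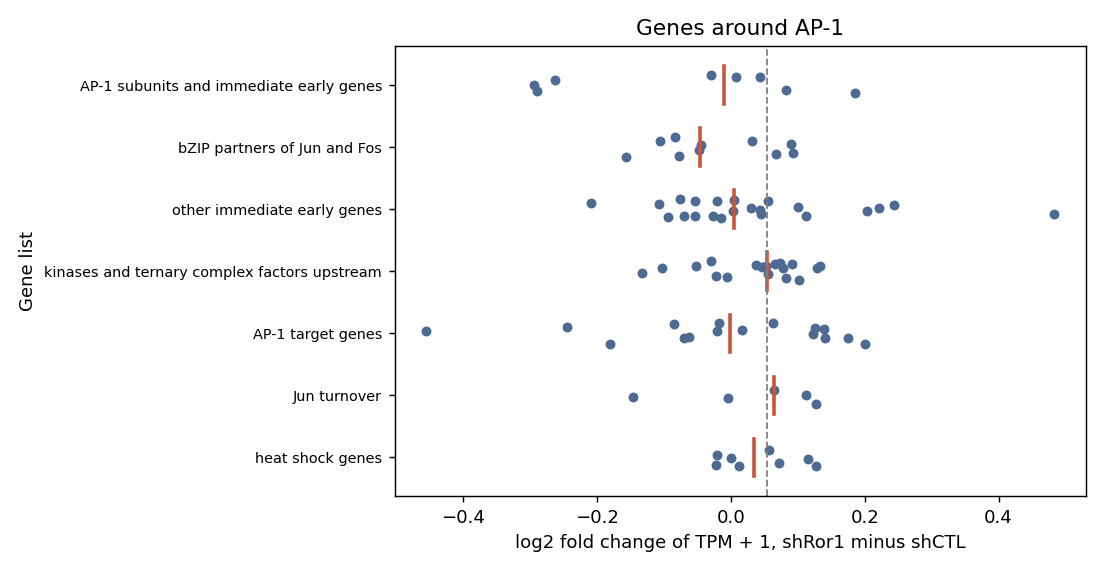
Log2 fold change of TPM + 1 (shRor1 minus shCTL) of each tested gene in 7 lists, with a red bar at the median of the list and a dashed line at the median of all tested genes (0.05). The lists spread on both sides of the line, and the farthest points are KLF2 at 0.48 and MMP1 at -0.455.

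The genes whose pattern over the 6 libraries was most like that of EGR1 among 11144 genes with a mean of at least 5 TPM were PSMB8 (Pearson's r = 0.966), USP13 (0.961) and RNF20 (0.957). They moved over a much smaller range, PSMB8 from 75.79 to 85.74 TPM while EGR1 went from 11.17 to 34.82 TPM. FOS, with a mean under 5 TPM, was not among the genes compared. For FOSL1 they were LAP3 (0.996), EIF3D (0.993) and PSMG3 (0.993). An r above 0.95 was reached by 6 genes with EGR1 and by 88 genes with FOSL1. No such count was made for other genes, so whether either number is unusual is not known. These values describe likeness over 6 libraries only.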

How the data were processed

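Total RNA of MDA-MB-231 cells was sequenced by the authors as single reads from a stranded kit. Per the paper and the labels, reads were mapped with STAR to GRCh37 with Ensembl annotation and gene abundances estimated with RSEM 1.2.5. The deposited values are TPM, although the name of the table speaks of estimated counts, so the authors' edgeR model could not be fitted. No sample column was left out (0 of 6).

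The fit took the 16554 of 57445 genes that reached 1 TPM in 3 libraries or more. Values were transformed to log2(TPM + 1), and the conditions were set against each other in limma 3.58.1 (R 4.3.3) with a mean-variance trend, the condition as the only term and Benjamini-Hochberg adjustment over all genes at 0.05. The fit was tested on simulated data. Symbols matched 55022 identifiers, and positions came from GENCODE 44 lifted to GRCh37. The members and gene lists were chosen with earlier results of these data known. From each list the 3 genes with the smallest p and the most abundant one were named, except a gene not reported here, with the 3 genes most correlated with EGR1 and FOSL1. HOOK2, EGR2, CCN1 in its library pattern, and MMP1, IL11 and PTGS2 were named outside the rule, for overlap or after their values were seen. Alternatives were another pseudocount, no filter, quantile and median ratio scaling and left-out libraries.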

Additional observations from a re-analysis of the deposited data

How the results depend on the processing

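No paired analysis was possible because no replicate number stands over the values. No member was called under any of the 11 alternatives, with adjusted p of the 8 tested members from 0.497 to 1 (limma). JUNB and ATF3 kept the sign of their log2 fold change under all 11, but not its size, with 0.054 to 0.335 and -0.398 to -0.075 when 1 library was left out, and ATF3 at -0.029 without the second library of both conditions. With median ratio scaling JUN had -0.036 and FOSL1 -0.072 (differences in mean TPM of -1.47 and -8.10). This scaling moved the median of all genes from 0.054 to -0.017. Without the second library of both conditions, chosen after the data were seen, FOSL2 had 0.031 (1.94 TPM) and FOSB a difference of 0.075 TPM. With each library left out in turn, log2 fold changes ran from -0.032 to 0.105 for JUN, -0.103 to 0.325 for JUND, -0.694 to 0.337 for FOS, -0.146 to 0.167 for FOSL1, -0.144 to 0.103 for FOSL2 and -0.504 to 0.139 for EGR1. Differences in mean TPM ran from -1.49 to 4.68 for JUN, -0.89 to 4.12 for JUND, -3.33 to 1.14 for FOS, -0.373 to 0.277 for FOSB, -21.7 to 27.8 for FOSL1, -7.45 to 5.88 for FOSL2, -8.71 to 1.86 for EGR1 and -1.08 to -0.102 for ARC. The cause was not tested.

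The number of genes called by limma was 0, with 472 at an unadjusted p below 0.05. It was 1 (RPL39P3) without the third shRor1 library, so that it ran from 0 to 1, and 1 (RNU6-36P) without the second library of both conditions. The number at an unadjusted p below 0.05 was 1363 without a filter, where more genes were tested, 215 without the second libraries, and 278 to 1720 when 1 library was dropped, the highest without the first shRor1 library. The median of the other immediate early genes was -0.028 with quantile normalization, -0.071 with median ratio scaling and 0.035 without the second libraries (-0.006 to 0.052 with 1 library left out), that of the upstream kinases -0.023 with median ratio scaling (-0.003 to 0.067 with 1 library left out), and that of the Jun turnover genes -0.005 and -0.010 with quantile normalization and median ratio scaling. With 1 library left out, the medians ran from -0.098 to 0.040 for the leucine zipper partners, -0.098 to 0.073 for the AP-1 targets, 0.043 to 0.110 for the Jun turnover genes and -0.041 to 0.149 for the heat shock genes.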

Other observations

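Some AP-1 targets and early genes were highest in the first library of both conditions, a pattern noticed in the data and not tested. The share of all tested genes with this pattern was not counted, and the first libraries deviated together over all tested genes (r = 0.284). Other targets went otherwise, with PLAU highest in the third library of both conditions and TGFB1 lowest in the first. The genes below were picked after their values were seen. MMP1, an interstitial collagenase with a known AP-1 site, had 35.65, 13.52 and 9.97 TPM in shCTL and 24.46, 9.34 and 7.61 TPM in shRor1. Its log2 fold change of -0.455 was the lowest of the target list, and its groups overlapped. PTGS2 (COX-2), which makes prostaglandins, had 2.30, 0.68 and 0.62 TPM in shCTL and 4.48, 0.36 and 0.75 TPM in shRor1. IL11, a cytokine, had 21.40, 16.05 and 19.83 TPM in shCTL and 30.12, 12.12 and 12.36 TPM in shRor1. FOS, EGR1 and ARC were instead highest in the second libraries.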
